A study of Homo sapiens with 18 samples.

Results

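The class II antigen presentation genes CD74, CIITA, HLA-DRA, HLA-DRB1, HLA-DMA, HLA-DMB, HLA-DPA1, HLA-DPB1 and CTSS were followed in MDA-MB-231 cells, a triple negative human breast cancer line. They are 9 of the 57448 genes in the deposited count table, and the set was chosen by the measured fall of CD74, among the largest of any gene, in cells edited to lack GPS2, a subunit of nuclear receptor corepressor complexes. All differences between knockout and parental cells are therefore given for these 9 genes as a description, with no test. RNA was sequenced from 6 groups of 3 replicates, which were parental cells (WT, no modification), 2 GPS2 knockout lines (KO1 and KO2, made with separate sgRNA sets), cells expressing myristoylated AKT (myrAKT), and KO1 and KO2 cells given 10 µM of the allosteric AKT inhibitor MK2206 for 4 h (KO1+MK and KO2+MK). KO1 and KO2 were lentiviral CRISPR-Cas9 pools rather than clones, so each may still hold cells with an intact gene. The myrAKT cells received a myristoylated and FLAG-tagged AKT1 by retrovirus, the WT cells carried no vector, and no vehicle is named for the untreated cells. In such bulk RNA, fewer cells expressing a gene and less RNA per cell cannot be told apart.

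MHC class II molecules present peptides from endosomes to CD4+ T cells, and they are best known from B cells, dendritic cells and macrophages, although tumour cells can make them too. The transactivator CIITA is recruited to the X and Y boxes ahead of class II genes by the RFX, CREB and NF-Y factors, and interferon gamma is its classical inducer. The alpha and beta chains assemble on the invariant chain CD74, the protease cathepsin S (CTSS) trims CD74 in the endosome, and HLA-DM exchanges the last CD74 fragment for peptide. At the cell surface CD74 is also a receptor for the cytokine MIF.

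The sequences just ahead of the transcription start are shown because the X and Y boxes there are what ties these genes to CIITA. The set of RefSeq promoter entries used here, on GRCh38.p14, held 6 of the 9 genes and the 7 other class II chains. CIITA, HLA-DRA and CTSS were missing from that set, which does not mean that RefSeq lacks them. The 250 upstream bases are written 5′ to 3′ on the strand of the gene. Capitals mark each TGATGA, letters from the X box region, and each ATTGG, the letters of the Y box, on either strand (TCATCA and CCAAT on the other).
CD74, chr5:150412911-150413160, minus strand: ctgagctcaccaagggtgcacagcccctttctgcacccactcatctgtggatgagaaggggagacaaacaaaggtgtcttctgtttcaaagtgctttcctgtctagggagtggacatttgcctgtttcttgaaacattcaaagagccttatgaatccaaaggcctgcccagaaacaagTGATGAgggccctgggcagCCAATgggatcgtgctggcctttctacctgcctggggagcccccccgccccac
HLA-DMA, chr6:32953098-32953347, minus strand: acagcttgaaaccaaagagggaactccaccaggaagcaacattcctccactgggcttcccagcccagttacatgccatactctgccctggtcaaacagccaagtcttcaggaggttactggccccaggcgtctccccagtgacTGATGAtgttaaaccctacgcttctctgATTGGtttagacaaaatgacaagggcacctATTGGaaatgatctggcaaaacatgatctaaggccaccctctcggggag
HLA-DRB1, chr6:32589849-32590098, minus strand: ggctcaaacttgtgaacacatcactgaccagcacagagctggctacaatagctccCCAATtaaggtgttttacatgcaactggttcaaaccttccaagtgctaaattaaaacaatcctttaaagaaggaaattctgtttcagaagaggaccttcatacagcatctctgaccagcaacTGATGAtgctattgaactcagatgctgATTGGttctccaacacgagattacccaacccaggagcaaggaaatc
HLA-DMB, chr6:32941029-32941278, minus strand: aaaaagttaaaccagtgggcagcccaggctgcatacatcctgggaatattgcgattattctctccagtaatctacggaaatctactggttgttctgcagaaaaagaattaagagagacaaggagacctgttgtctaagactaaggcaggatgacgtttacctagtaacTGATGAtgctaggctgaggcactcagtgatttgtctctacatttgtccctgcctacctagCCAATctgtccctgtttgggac
The letters were chosen after these sequences had been read, and a match is a description rather than a site. Only exact letters were sought, so a sequence without them may still hold a box. A TGATGA stood 13 bases from a CCAAT upstream of CD74, 22 bases from an ATTGG upstream of HLA-DMA and 21 bases from an ATTGG upstream of HLA-DRB1. HLA-DMB held both sets of letters further apart, HLA-DPB1 held ATTGG alone, and neither of the 2 HLA-DPA1 entries held either. Of 35116 upstream sequences of the same length, 9.27% held TGATGA, 32% held ATTGG and 0.607% held the pair with 10 to 25 bases between them. Of the 7 other class II chains, HLA-DRB5 and HLA-DOB held the pair, and HLA-DQA1, HLA-DQB1, HLA-DQA2, HLA-DQB2 and HLA-DOA held ATTGG without TGATGA. Nothing is read from these shares, since the letters were picked on the same sequences.

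Library totals ran from 23419198 to 39319910 counts. Levels are given as CPM, the counts of a gene per 1e6 counts of its library after TMM scaling (trimmed mean of M-values), on which 3 counts are worth 0.0774 to 0.125 CPM. Intervals and floors cover sampling only. GPS2 was at 4.57 ± 0.278 CPM in WT, 4.50 ± 0.0364 CPM in KO1 and 6.04 ± 0.123 CPM in KO2 (mean ± SD, n = 3). A count over the whole gene does not show edited exons, so the knockout labels were not checked by it. The authors report western blot and genomic PCR as their checks of the knockdown. AKT1 was at 135 ± 1.00 CPM in WT and 231 ± 12.0 CPM in myrAKT cells, with no overlap. Of the genes taken to mark the labelled line, the mesenchymal filament gene VIM had 31175 to 64753 counts per library, the epithelial cadherin gene CDH1 at most 4 and the progesterone receptor gene PGR at most 5. The oestrogen receptor gene ESR1 had 23 to 44 counts and the receptor gene ERBB2 had 1941 to 3340, and the epithelial genes KRT8, with 6736 to 13814, KRT18, with 4623 to 10343, and EPCAM, with 101 to 445, were present as well. Markers of professional antigen presenting cells were uneven. CD22, a B cell lectin gene, had 540 to 1628 counts, and the myeloid genes CSF1R, with 36 to 125, CD14, with 13 to 77, and CD68, with 4 to 29, were detected. There were no counts of MS4A1, which encodes CD20, of the myeloid adaptor gene TYROBP or of the dendritic cell gene CD1C, and at most 5 per library of PTPRC, which encodes the leukocyte antigen CD45. The labels do not say that replicates were separate cultures, so p-values measure the spread between these samples, which may be technical.

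CIITA (ENSG00000179583, hg38 chr16:10866222-10943021, plus strand) was at 4.37, 4.20 and 4.09 CPM in the WT libraries, against 2.08, 2.14 and 2.05 CPM in KO1 and 2.64, 2.24 and 2.10 CPM in KO2. The myrAKT libraries were at 8.07, 7.99 and 7.91 CPM. Every knockout library lay below every WT library, and every myrAKT library lay above them. The fold change between pooled knockout and WT cells was -0.95 on the log2 scale. In myrAKT cells CIITA rose by 0.91 ± 0.10 (log2, standard error, edgeR adjusted p = 1.83e-06), a 1.88-fold change with a 95% interval from 1.63 to 2.17. Treated KO1 cells were at 2.00, 1.48 and 1.55 CPM and treated KO2 cells at 1.61, 1.80 and 1.11 CPM, so that each treated library lay below the untreated libraries of its pool. CIITA shares 10.7% of its exon bases with DEXI on the opposite strand, a gene with 12 to 33 counts per library. It shares 10.5% with ENSG00000280153 on the same strand, which had 14 to 52 counts and which counting by strand would not separate. Whether the counting used strand is not given in the sources used here. The part of DEXI and ENSG00000280153 reads in the CIITA values was not tested.

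CD74 (ENSG00000019582, chr5:150401637-150412969, minus strand) was the gene that lay below WT in myrAKT cells too. It was at 5.52, 6.07 and 6.60 CPM in WT, and its counts there were 188, 221 and 245. In KO1 it was at 0.738, 0.514 and 0.665 CPM, and in KO2 at 0.258, 0.309 and 0.327 CPM, the latter from 9 to 12 counts. The myrAKT libraries held 1.45, 1.60 and 1.01 CPM. CD74 was thus highest in WT, next in myrAKT and lowest in KO2 and KO2+MK, which overlapped each other, whereas the other neighbours in that order did not overlap. Relative to WT the log2 fold change was -3.26 in KO1, -4.33 in KO2 and -3.70 with both pools together. In myrAKT cells CD74 fell by 2.18 ± 0.17 on the log2 scale (edgeR adjusted p = 7.31e-08), which put it 4.54-fold lower than WT, with a 95% interval from 3.54 to 5.83. With MK2206 it was at 0.833, 0.816 and 0.756 CPM in KO1 and at 0.269, 0.216 and 0.201 CPM in KO2, far under WT in both.

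CTSS (ENSG00000163131, chr1:150730079-150765957, minus strand), the protease that degrades the invariant chain, was at 5.11, 6.02 and 5.17 CPM in WT. KO1 libraries were at 3.11, 3.08 and 3.05 CPM and KO2 libraries at 2.29, 1.91 and 1.96 CPM, all below WT, with a log2 fold change of -1.10 for both pools together. The myrAKT libraries were at 9.18, 8.76 and 8.58 CPM, all above WT. CTSS rose in myrAKT cells by 0.70 ± 0.10 on the log2 scale (edgeR adjusted p = 3.30e-05). It was at 2.79 to 3.52 CPM in KO1+MK and 1.51 to 1.95 CPM in KO2+MK, which overlapped the untreated libraries of the same pool.

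HLA-DM is the heterodimer that edits the peptides on class II molecules. HLA-DMA (ENSG00000204257, chr6:32948613-32969094, minus strand), its alpha chain, was at 4.87, 4.59 and 4.71 CPM in WT, at 2.03, 1.76 and 1.74 CPM in KO1, at 1.43, 1.37 and 1.36 CPM in KO2 and at 5.81, 5.49 and 5.63 CPM in myrAKT. The knockout libraries were all below WT (log2 fold change -1.56), and the myrAKT libraries were all above it by a small margin. That margin of 0.25 ± 0.10 (log2, 95% interval from 0.03 to 0.47, edgeR adjusted p = 0.0531) did not pass the test. HLA-DMA shares 55 exon bases with BRD2 on the opposite strand, a gene with 8496 to 24164 counts per library against 34 to 217 of HLA-DMA. BRD2 was at 256 ± 7.98 CPM in WT, 393 ± 24.4 CPM in KO1 and 373 ± 10.6 CPM in KO2, above WT where HLA-DMA was below it, and at 293 ± 9.45 CPM in myrAKT, above WT as HLA-DMA was. It was at 646 ± 2.48 CPM in KO1+MK and 751 ± 50.5 CPM in KO2+MK. The part of BRD2 reads in the HLA-DMA values was not tested. HLA-DMB (ENSG00000242574, chr6:32934629-32941028, minus strand), the beta chain, was far lower, with 15 to 20 counts in WT libraries. It was at 0.470, 0.549 and 0.404 CPM in WT, at 0.132, 0.298 and 0.388 CPM in KO1, at 0.229, 0.232 and 0.0545 CPM in KO2 and at 1.54, 1.60 and 1.09 CPM in myrAKT. The 3 groups did not overlap with WT, although the KO1 and WT values nearly met. In myrAKT cells HLA-DMB was 1.55 ± 0.26 higher than in WT on the log2 scale, given with no test since only its myrAKT libraries carried it past the filter on low counts. With no filter HLA-DMB was 1.51 ± 0.28 higher, again given with no test.

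HLA-DR is the most abundant class II molecule of antigen presenting cells. HLA-DRA (ENSG00000204287, chr6:32439878-32445046, plus strand), its alpha chain, was at 0.616, 0.440 and 0.754 CPM in WT, against 0.105 to 0.216 CPM in KO1 and 0.129 to 0.143 CPM in KO2, where each library held 4 to 8 counts. It was at 3.04, 2.98 and 2.78 CPM in myrAKT, well above every WT library. HLA-DRA had a log2 fold change of -2.05 in the knockout pools, and its value in myrAKT against WT was 2.27 ± 0.21. It passed the filter on low counts only through its myrAKT libraries, so that this value is given with no test. In a fit without the filter it was 2.23 ± 0.22, again given with no test. HLA-DRB1 (ENSG00000196126, chr6:32577902-32589848, minus strand), the beta chain, gave 0, 4 and 3 counts in WT, 2, 7 and 2 in KO1, 2, 3 and 2 in KO2 and 19, 25 and 23 in myrAKT. The knockout and WT libraries overlapped at this depth, and no difference between them was detectable. HLA-DRB1 did not pass the filter on low counts. In a fit without the filter it was 3.22 ± 0.50 higher in myrAKT than in WT on the log2 scale, given with no test. HLA-DRB1 shares long stretches with HLA-DRB5, which had at most 9 counts per library, and reads may have been split between the 2 genes. HLA genes differ widely between people, and the effect of alleles unlike the reference on these counts was not tested.

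HLA-DP is another classical class II molecule. HLA-DPA1 (ENSG00000231389, chr6:33064569-33080775, minus strand), the alpha chain, was at 0.734, 0.934 and 1.13 CPM in WT, at 0.316, 0.406 and 0.305 CPM in KO1, at 0.401, 0.155 and 0.354 CPM in KO2 and at 2.83, 3.85 and 3.14 CPM in myrAKT. HLA-DPB1 (ENSG00000223865, chr6:33075990-33089696, plus strand), the beta chain, was at 0.147, 0.192 and 0.350 CPM in WT, with 5 to 13 counts, at 0.132, 0.0541 and 0.111 CPM in KO1, at 0.0573, 0.129 and 0.0818 CPM in KO2 and at 1.45, 1.32 and 1.84 CPM in myrAKT. For both chains the knockout libraries lay below WT and the myrAKT libraries above it. The log2 fold changes in the knockout pools were -1.55 for HLA-DPA1 and -1.28 for HLA-DPB1. In myrAKT against WT the values were 1.79 ± 0.20 for HLA-DPA1 and 2.71 ± 0.31 for HLA-DPB1 on the log2 scale, given with no test because neither would have passed the filter without its myrAKT libraries. In a fit without the filter HLA-DPA1 was 1.75 ± 0.20 higher and HLA-DPB1 was 2.67 ± 0.31 higher, again given with no test. The 2 genes share 96 exon bases on opposite strands.

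**Figure D1:**
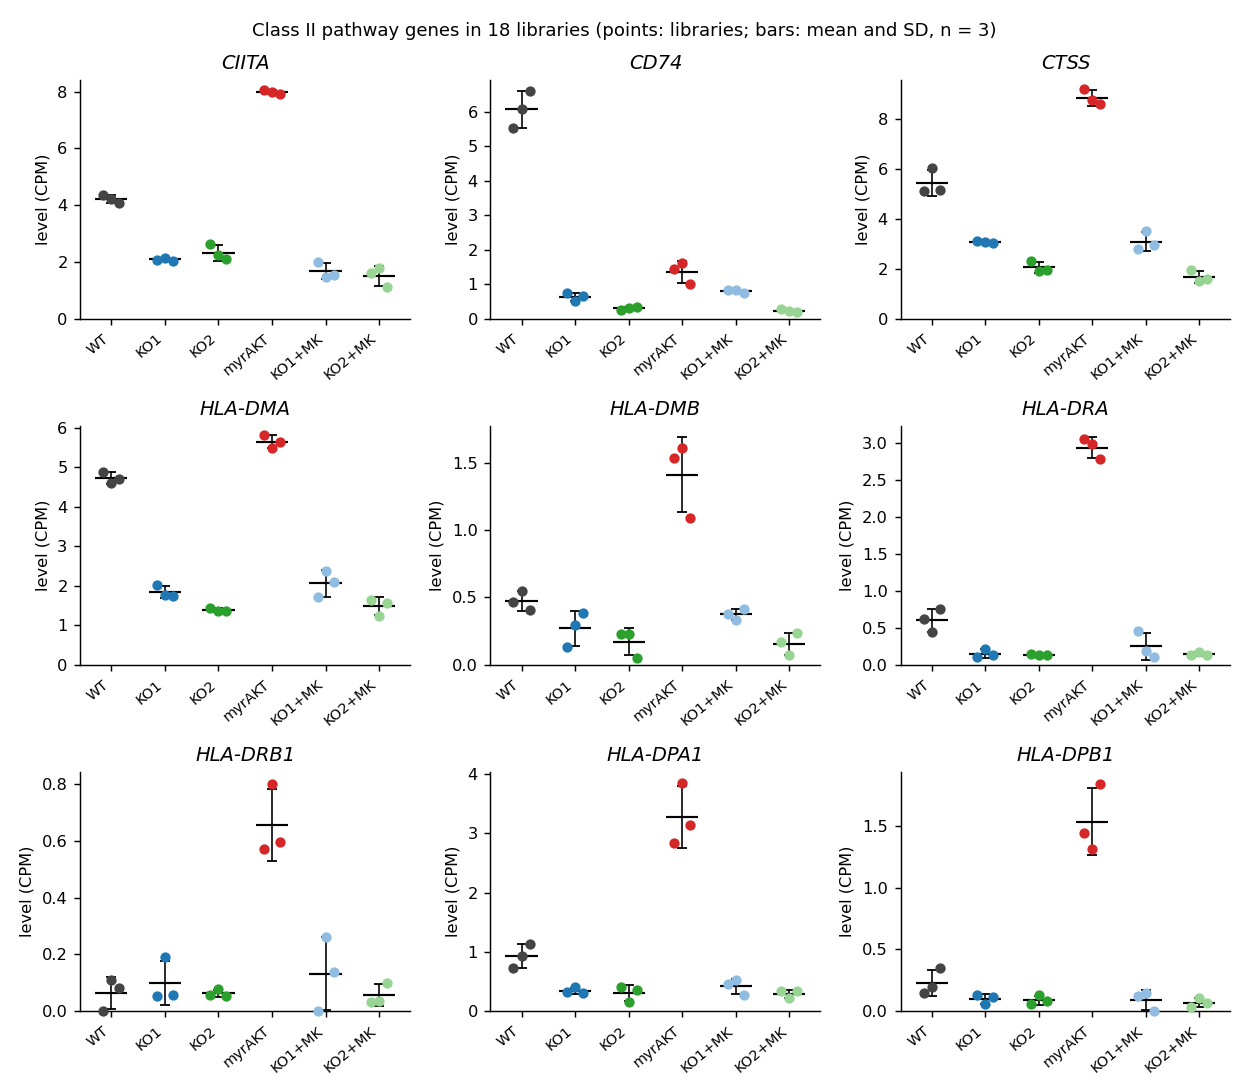
Level of each gene in the 18 libraries, in CPM on a linear axis that starts at 0, with points for libraries and bars for the mean and SD of 3 replicates. The myrAKT points lie above WT in every panel but that of CD74, where they lie between WT and the knockout pools.

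Of the 9 genes, 8 lay below WT in every KO1 library and 8 in every KO2 library, HLA-DRB1 being the exception in each. Over all 15587 genes tested, 26.8% lay below WT in every library of both pools, and nothing is read from the comparison with that share, since the same contrast chose the genes. Under the rule of a 1.5-fold change at an edgeR adjusted p up to 0.001, 8.59% of all genes tested were called lower and 4.07% higher in knockout than in WT cells. The values of KO1 and KO2 tell how the pools differed among the 8 genes. The log2 fold change from WT ran from -0.82 for HLA-DMB to -3.26 for CD74 in KO1, and from -0.87 for CIITA to -4.33 for CD74 in KO2.

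The comparison of myrAKT with WT sets cells given an active AKT beside parental cells, and it uses the same WT libraries as the contrast that chose the genes. Since the WT cells carried no vector, AKT activity and transduction cannot be told apart in it. In this comparison 8 of the 9 genes lay above WT in every library, and CD74 alone lay below. Of the genes tested, which leave out HLA-DRB1, 30.3% lay above WT and 30.6% below. Nothing is read from the 8 beside the 30.3%, since 4 of the 8 passed the filter only through their myrAKT libraries. HLA-DRA, HLA-DMB, HLA-DPA1 and HLA-DPB1 entered the fit only because their myrAKT libraries reached 1 CPM, and no count of calls is given over them. CIITA, CTSS, HLA-DMA and CD74 passed the filter without the myrAKT libraries. Of these 4 genes CIITA and CTSS rose, CD74 fell and HLA-DMA did not pass at an adjusted p limit of 0.001, under which 12.7% of all genes tested were called higher and 17.3% lower. Of the class II genes 7 were below WT in both knockout pools and above it in myrAKT, an order shown by 4.77% of the genes tested, whereas CD74 was among the 13.7% that were below WT in both pools and in myrAKT. Nothing is read from these shares, since the fall in the pools is what chose the set and 4 of the 7 genes passed the filter through their myrAKT libraries. No test was run on that difference in direction.

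**Figure D2:**
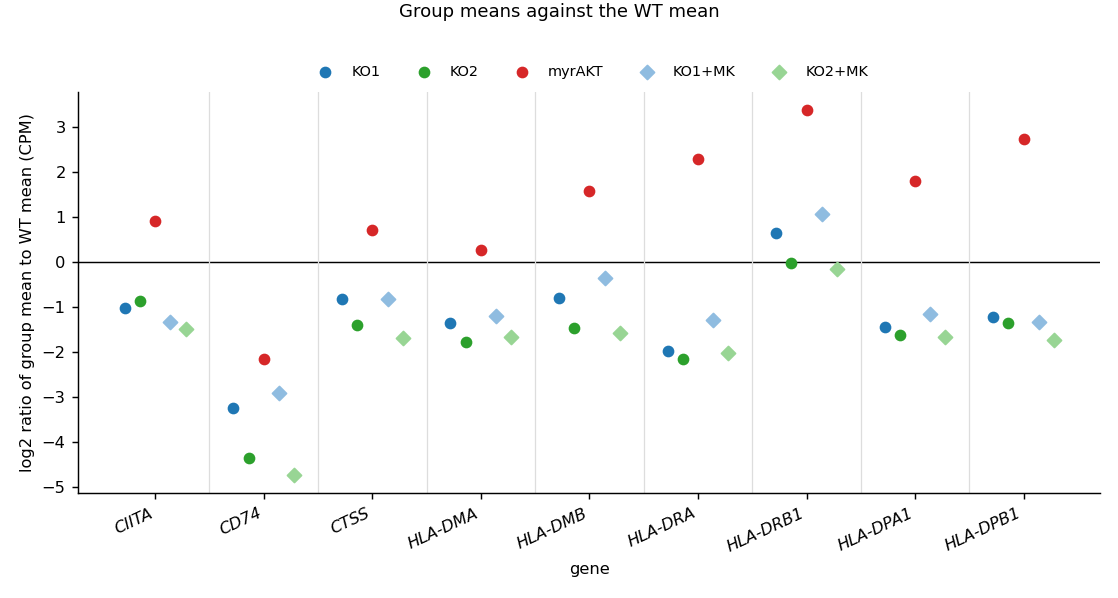
Log2 ratio of each group mean to the WT mean (CPM), for KO1, KO2 and myrAKT as circles and for the treated pools as diamonds, with WT at 0. CD74 is the gene whose myrAKT mean lies below 0, at -2.16, and HLA-DRB1, which rests on a few counts per library outside myrAKT, has values on both sides of 0.

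Markers of other cells moved with the groups in part. The 12 myeloid and dendritic markers together summed to between 5.58 and 6.83 CPM in myrAKT, against 3.90 to 5.11 CPM in WT, 3.08 to 3.76 CPM in KO1 and 3.65 to 3.84 CPM in KO2. Of the 2 that were tested, CSF1R, the receptor of macrophage colony stimulating factor, rose by 1.30 ± 0.19 (log2, edgeR adjusted p = 5.99e-05) and CD14 did not pass the test (-1.24, adjusted p = 0.00200). CD14, which encodes a lipopolysaccharide coreceptor, fell in knockout against WT cells, as the class II genes were lower there, by 1.27 ± 0.24 on the log2 scale with both pools together (edgeR adjusted p = 8.22e-04) and by 1.62 ± 0.26 in KO2 (edgeR adjusted p = 1.14e-04), and was at -0.99 in KO1 (edgeR adjusted p = 0.00177). CSF1R lay the other way in the knockout pools without passing, at 0.36 with both together (edgeR adjusted p = 0.187) and 0.62 in KO2 (edgeR adjusted p = 0.0127). FCER1G, an Fc receptor chain gene below the filter, averaged 0.102 CPM in WT, 0.144 CPM in KO1, 0.218 CPM in KO2 and 0.0715 CPM in myrAKT. The lysozyme gene LYZ was at 0.752 ± 0.104 CPM in myrAKT and 0.0656 ± 0.0194 CPM in WT. TYROBP and CD1C stayed at 0 in all libraries. The 7 B cell markers summed to between 35.0 and 40.9 CPM in myrAKT, between 30.2 and 34.0 CPM in WT, between 39.8 and 44.5 CPM in KO1 and between 26.0 and 28.4 CPM in KO2, most of it from CD22, which alone passed the filter. CD22 differed from WT by 0.44 in KO1 (log2, edgeR adjusted p = 4.50e-06) and by -0.22 in KO2 (edgeR adjusted p = 0.00212), both short of a 1.5-fold change. The other 6 summed to between 0.452 and 0.648 CPM in myrAKT, between 1.02 and 1.61 CPM in WT, between 0.443 and 0.817 CPM in KO1 and between 0.630 and 0.722 CPM in KO2. The part of these genes in the class II values was not tested.

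KO1 and KO2 were then compared with each other, since the choice of genes used the fall in both pools and not their difference. CD74 was 2.11-fold higher in KO1 than in KO2, with a 95% interval from 1.37 to 3.25 (log2 1.08 ± 0.29, edgeR adjusted p = 0.00914). CTSS was 1.49-fold higher, with an interval from 1.23 to 1.81 (log2 0.58 ± 0.13, edgeR adjusted p = 0.00301). Neither met the rule of a 1.5-fold change at an adjusted p up to 0.001, under which 1.87% of the genes tested were called higher and 0.744% lower in KO1, although CD74 met the looser limit of 0.05 (DESeq2 gave 0.0587), and CTSS was called in a fit without the filter (log2 0.62, edgeR adjusted p = 3.76e-04). CD74, CTSS and HLA-DMA lay higher in every KO1 library than in any KO2 library, as did 25.4% of the genes tested. By edgeR 0 of the 8 genes were called and 3 had an unadjusted p under 0.05, and by DESeq2 0 were called.

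MK2206 was given to ask which of the knockout differences depend on AKT activity. It called none of the 8 genes in KO1, in KO2 or in both together, where 4.5% of all genes tested were called higher and 2.03% lower with the pools together, and 5.01% in KO1 and 7.06% in KO2 in either direction. With the pools together 1 of the 8, CIITA, had an unadjusted p under 0.05 in edgeR, and DESeq2 called 0. CIITA was -0.45 on the log2 scale in treated against untreated cells (95% interval from -0.74 to -0.17, edgeR adjusted p = 0.0113). It was the only one of the 9 genes whose treated libraries all lay to the same side of the untreated libraries in each pool, and they lay lower, as did those of 21.8% of the genes tested. Within the pools the CIITA difference was -0.30 in KO1 (interval from -0.70 to 0.10, edgeR adjusted p = 0.201) and -0.61 in KO2 (interval from -1.02 to -0.20, edgeR adjusted p = 0.0181). In KO2 it met the looser rule of a 1.5-fold change at an adjusted p up to 0.05.

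CD74 did not pass the test after MK2206 either. Its difference was 0.13 with the pools together (95% interval from -0.73 to 1.00, edgeR adjusted p = 0.814), 0.35 in KO1 (interval from -0.22 to 0.91, adjusted p = 0.305) and -0.36 in KO2 (interval from -1.14 to 0.42, adjusted p = 0.471). The pooled fit had no term for the pool, so the gap between KO1 and KO2 enters its interval. The standard error of the CD74 difference was 0.40 with the pools together, 0.26 in KO1 and 0.37 in KO2. Leaving out any single one of the 3 KO1+MK libraries turned the sign of the pooled difference, to between -0.056 and -0.021. HLA-DMA had the narrowest interval of the HLA genes, from -0.19 to 0.50 around 0.15, and HLA-DPB1, at 0 to 5 counts in the 12 libraries, the widest, from -1.37 to 0.87 around -0.25. CTSS differed by -0.09 (interval from -0.55 to 0.37). The difference of the MK2206 effect between KO1 and KO2 was tested itself and was called for 0 of the 8 genes by edgeR, with 0 under an unadjusted p of 0.05, where 0% of all genes tested were called, and DESeq2 gave these genes no adjusted p. It was 0.71 for CD74 (interval from -0.16 to 1.58, edgeR adjusted p = 0.729).

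**Figure D3:**
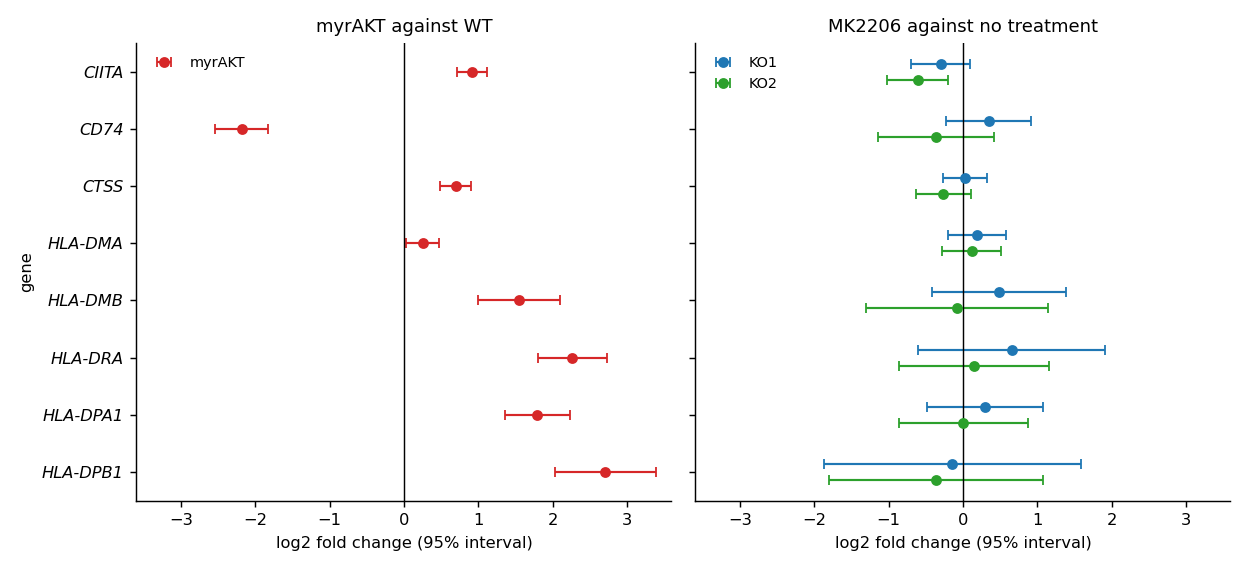
Log2 fold change with its 95% interval (edgeR) for the 8 genes tested, in myrAKT against WT and in MK2206 against no treatment within KO1 and KO2. In the first panel CD74 lies at -2.18 and the other genes lie above 0, 4 of them (HLA-DRA, HLA-DMB, HLA-DPA1 and HLA-DPB1) having passed the filter only through myrAKT, and in the second each interval but that of CIITA in KO2 crosses 0.

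Treated knockout cells stayed below WT for most of the genes. In KO2+MK 8 genes lay below WT in every library and HLA-DRB1 overlapped. In KO1+MK the number was 5, since HLA-DRA, HLA-DRB1, HLA-DMB and HLA-DPB1 overlapped with WT. Of the genes tested, 27.1% lay below WT in every treated library of both pools at once. No such share is given for each pool alone, so nothing is read from the counts beside it. The mean of CD74 was 0.132 of the WT mean in KO1+MK and 0.0377 of it in KO2+MK, and that of CIITA was 0.397 and 0.357. These are the pools of the contrast that chose the genes, and no test was run.

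Levels were set side by side between genes as CPM per kb of exon, over the union of exons in GENCODE release 44. In WT cells HLA-DMA came first with 1.87 CPM per kb, followed by CD74 with 1.34, CTSS with 0.788, HLA-DRA with 0.485 and CIITA with 0.187. The beta chains were lowest, with 0.0440 CPM per kb for HLA-DPB1 and 0.0206 for HLA-DRB1. In myrAKT cells HLA-DRA, at 2.36 CPM per kb, and HLA-DMA, at 2.24, were at the top, and CD74, at 0.299, was number 7 of 9. With the length of the canonical transcript in place of the union, a choice made after seeing the data, CD74 was number 2 in WT and number 6 in myrAKT, CIITA moved from number 5 to 7 and HLA-DPA1 from 6 to 4 in WT, and HLA-DMA, at 5.16 CPM per kb, came ahead of HLA-DRA, at 2.38, in myrAKT. In all groups these were low levels, and the highest CPM of any of the 9 genes was the 9.18 of CTSS in a myrAKT library.

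The level of CD74 per kb relative to that of CIITA was lower in every other group than in WT. It was 7.17 ± 0.873 in WT, 1.53 ± 0.294 in KO1, 0.650 ± 0.148 in KO2 and 0.843 ± 0.187 in myrAKT. In the treated pools it was 2.42 ± 0.333 in KO1+MK and 0.778 ± 0.161 in KO2+MK. Over canonical transcripts it was higher throughout, 13.99 ± 1.70 in WT, 2.98 ± 0.574 in KO1, 1.27 ± 0.289 in KO2 and 1.64 ± 0.364 in myrAKT, so only the order of the groups, and not whether the ratio is above or below 1, can be read from it. Over the union of exons the lowest WT library, at 6.29, lay above the highest library of the other 5 groups, at 2.74. Relative to HLA-DRA, a class II chain that CD74 chaperones, CD74 per kb was 2.89 ± 0.788 in WT and 0.126 ± 0.0241 in myrAKT. KO1 lay between them at 1.30 ± 0.636 and KO2 at 0.605 ± 0.0952. Over canonical transcripts these were 7.85 ± 2.14 in WT, 0.343 ± 0.0655 in myrAKT, 3.53 ± 1.73 in KO1 and 1.64 ± 0.259 in KO2.

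**Figure D4:**
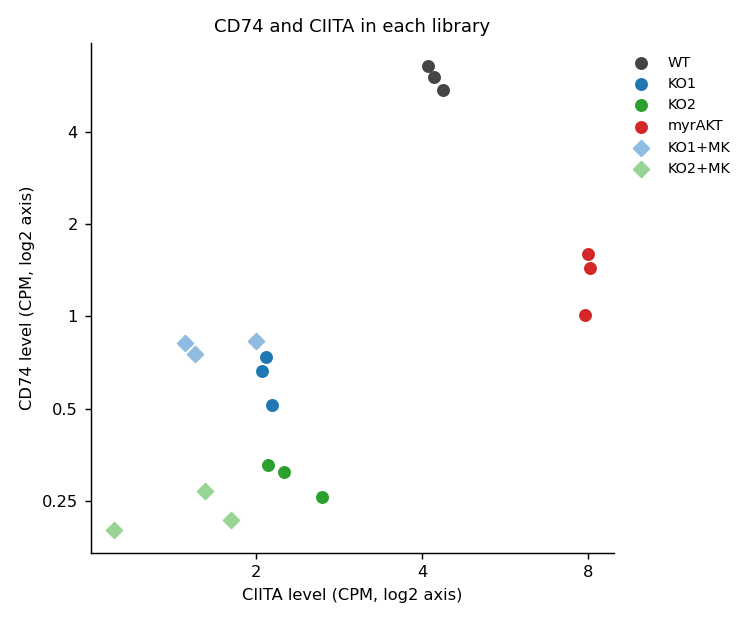
CD74 against CIITA in each of the 18 libraries, both as CPM on log2 axes. The WT libraries stand alone at the top near 4 CPM of CIITA, and the myrAKT libraries, near 8 CPM of CIITA, hold 1.01 to 1.60 CPM of CD74.

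The genes most like CD74 were not class II genes. Over the 18 libraries, which share their 6 groups, the Pearson correlation of log2 CPM with CD74 was 0.977 for STEAP2, a metalloreductase gene, 0.976 for IFNGR2, 0.975 for the transporter gene SLC22A18, 0.973 for the interferon-induced gene IFITM1 and 0.972 for the laminin receptor chain ITGA6. IFNGR2, which encodes the signalling chain of the interferon gamma receptor, averaged 51.5 CPM in WT, 35.0 CPM in KO1, 30.8 CPM in KO2 and 40.4 CPM in myrAKT. Of the class II genes HLA-DMA had the highest correlation with CD74, 0.830, which was number 800 among the genes tested. CTSS had 0.757, CIITA 0.619, HLA-DPA1 0.577, HLA-DMB 0.564, HLA-DRA 0.553 and HLA-DPB1 0.431.

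The rest of the pathway was read from 6 lists of 62 genes, of which 44 passed the filter, and none of the 7 other class II chains did. HLA-DQA2 had no count in any library, HLA-DQA1 had 1 in all, and the most abundant, HLA-DOB, had 2 to 11 counts per library. IFNG, the gene of interferon gamma, had no count either. In knockout against WT cells 1 of the 44 genes was called higher and 5 lower, where 4.07% of all genes tested were called higher and 8.59% lower, so that the counts are near that background. The median log2 fold change of the 44 was -0.16, beside -0.0029 over all genes tested. Of 16 genes of endosomal proteases, their inhibitors and other processing factors 2 were called lower, both cathepsins, CTSF by 2.03 ± 0.34 on the log2 scale (edgeR adjusted p = 3.43e-04) and CTSB by 0.59 ± 0.05 (edgeR adjusted p = 1.30e-06). CTSH (-0.58), CTSV (-0.50), LGMN (-0.50), CTSL (-0.36) and the inhibitor gene CST3 (-0.37) met the limit on the adjusted p and not the 1.5-fold change. Of 12 transcription factor genes RFXAP, a subunit of the RFX complex that binds the X box, was the only one called, and it rose by 0.87 ± 0.15 (edgeR adjusted p = 3.95e-04). NFYA, NFYB and NFYC, the subunits of NF-Y, met the adjusted p limit with smaller folds, at 0.37, 0.24 and 0.43 on the log2 scale (edgeR adjusted p = 1.81e-04, 8.14e-04 and 6.05e-06), as did IRF2 at -0.40 (edgeR adjusted p = 5.52e-05). IFNGR2 fell by 0.67 ± 0.06 (edgeR adjusted p = 3.78e-06), the only one of 9 genes of its receptor pathway to meet both limits, while SOCS3 (0.56), PTPN2 (0.22) and JAK1 (-0.22) were among those that met that on the adjusted p alone. Among 6 costimulatory and partner genes CD274, which encodes PD-L1, fell by 0.95 ± 0.08 (edgeR adjusted p = 2.83e-06) and CD40 fell by 0.62 ± 0.10 (edgeR adjusted p = 2.75e-04). ICAM1, the adhesion ligand of T cell integrins, had the lowest value of this list, -2.03 ± 0.49, and did not pass with the pools together (edgeR adjusted p = 0.00385), but it fell by 1.31 ± 0.06 in KO1 (edgeR adjusted p = 4.73e-10) and by 3.50 ± 0.05 in KO2 (edgeR adjusted p = 1.43e-13). The count of 5 falls became 2 without WT replicate 3 and 3 without KO2 replicate 2. RFXAP was not called without WT replicate 1 or without WT replicate 3.

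In myrAKT against WT 5 of the 44 genes rose and 9 fell, with a median log2 fold change of 0.016, beside 0.016 over all genes tested. These counts too are near the background, in which 12.7% of all genes tested rose and 17.3% fell. CTSF, a cysteine cathepsin, fell by 5.85 ± 0.19 (edgeR adjusted p = 1.69e-11), and CTSB, lower in the knockout pools, rose by 0.51 ± 0.05 (edgeR adjusted p = 6.40e-07). ICAM1 fell by 3.49 ± 0.06 (edgeR adjusted p = 6.12e-14) and CD40 by 0.84 ± 0.05 (edgeR adjusted p = 3.89e-09). IFNGR2 fell by 0.36 ± 0.05 (edgeR adjusted p = 2.38e-05) and the kinase gene JAK1 by 0.25 ± 0.04 (edgeR adjusted p = 1.11e-04). Of the 3 tested genes of the MIF receptor complex, CXCR4 fell by 0.58 ± 0.11 (edgeR adjusted p = 4.21e-04) and CD44 by 0.50 ± 0.05 (edgeR adjusted p = 7.54e-07). The rises of CTSL, CTSZ, CST3 and CD58 and the falls of CTSC and CD274 complete the 14 calls, and these 6 genes were chosen after their values were seen. None of the 12 transcription factor genes passed in myrAKT by edgeR.

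MK2206 in knockout cells called 3 of the 44 genes, 2 of them higher and 1 lower, near the 4.5% and 2.03% of all genes tested. CTSK, the collagen-degrading cathepsin K, rose by 1.23 ± 0.13 (edgeR adjusted p = 3.61e-06), and LAG3, a receptor of class II molecules, rose by 1.06 ± 0.20 (edgeR adjusted p = 5.09e-04). PDCD1LG2, which encodes PD-L2, fell by 0.78 ± 0.14 (edgeR adjusted p = 4.69e-04). The 2 rises became 1 without KO1 replicate 2 or 3, KO2 replicate 2, KO1+MK replicate 1 or any KO2+MK replicate. The fall was not called without KO1 replicate 1, KO2 replicate 2 or 3, KO1+MK replicate 1 or 3, or KO2+MK replicate 1 or 3. Between the untreated pools, CTSF was 1.53 ± 0.16 higher on the log2 scale in KO1 than in KO2 (edgeR adjusted p = 1.11e-06) and ICAM1 was 2.19 ± 0.08 higher (edgeR adjusted p = 1.28e-11), and the other 42 genes were not called, where 1.87% of all genes tested were called higher and 0.744% lower.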

How the data were processed

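Total RNA was depleted of ribosomal RNA and sequenced as 75 base paired ends in 2 runs, with no batch named per library. The authors deposited counts, the number of reads assigned to each Ensembl gene with featureCounts after FastQC, Trim Galore and HISAT2 alignment to hg38, and no normalization had been applied to them. The sources used here do not give the strand setting, the annotation or the handling of reads that touch several genes. Groups were taken from the sample labels, and GENCODE release 44 gave symbols and positions.

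The 15587 genes that reached 1 CPM in 3 or more of the 18 libraries were tested. Pairs of groups were fitted with edgeR 4.0.16 in R 4.3.3 (TMM scaling, quasi-likelihood test, two-sided, Benjamini-Hochberg adjustment over all genes tested), with KO1 and KO2 pooled or apart. Where they were pooled, the main fit had no term for the pool. A call needed a 1.5-fold change and an adjusted p up to 0.001, or that adjusted p alone for myrAKT. Log2 CPM for correlations used a prior count of 2. The code was tested on simulated data, and summaries were computed and drawn with Python 3.11.15, pandas 2.3.3 and matplotlib 3.10.9.

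The 9 genes and all gene lists were chosen with earlier results of these data known. The text names the 9 genes, GPS2 and AKT1, the 2 genes of each pathway list with the largest called change in each of 3 comparisons and the 5 genes most like CD74. Neighbouring genes, markers and members of short counts were named after their values were seen. Alternatives were DESeq2 1.42.0, its size factors or upper quartiles in edgeR, no filter or filterByExpr, all 18 libraries in 1 fit, a replicate block, the pool as a covariate, an adjusted p limit of 0.05 and the omission of each library. The mean chi-square per gene of replicate pairs ran from 2.14 to 9.78, above counting error.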

Additional observations from a re-analysis of the deposited data

Results flagged for a closer look

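For 7 of the 9 genes the libraries moved to opposite sides of WT in the knockout pools and in myrAKT cells, all KO1 and KO2 libraries lying below every WT library and all myrAKT libraries above. The log2 ratio of the myrAKT mean to the WT mean was 0.92 for CIITA, 2.28 for HLA-DRA, 0.26 for HLA-DMA, 1.57 for HLA-DMB, 1.81 for HLA-DPA1, 2.74 for HLA-DPB1 and 0.70 for CTSS. The difference between the 2 effects was not tested, the same WT libraries enter both, and 4.77% of the genes tested showed this order. Part of the order was fixed beforehand, since the fall in the pools chose the set and HLA-DRA, HLA-DMB, HLA-DPA1 and HLA-DPB1 passed the filter only through their myrAKT libraries. With 3 libraries per group, single libraries were not screened for outliers.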

How the results depend on the processing

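The call of CD74 in myrAKT cells held under every alternative run, with log2 fold changes between -2.33 and -2.01, and no called value of the 9 genes changed sign. Leaving out a library gave CD74 values from -3.86 to -3.58 in knockout against WT cells, 0.96 to 1.21 in KO1 against KO2 and -0.056 to 0.31 for MK2206 in both pools. CD74 was called in KO1 against KO2 (1.08) at an adjusted p limit of 0.05, and its MK2206 value was -0.029 with all 18 libraries in 1 fit. Pathway genes called higher in knockout cells, 1 in all, numbered 2 at the looser limit, with DESeq2, with its size factors, with filterByExpr and with all libraries in 1 fit, and 3 without a filter, and 0 to 2 without a library. Those called lower, 5 in all, were 9 at the looser limit, 3 with a replicate block and 2 to 6 without a library. At the looser limit, which adds a minimum fold, 1 rose and 4 fell in myrAKT. Without a library the MK2206 counts were 1 to 2 higher and 0 to 1 lower. The replicate numbers did not pair the samples, since in none of 15 pairs of groups did every same-numbered pair of libraries correlate above 0.1, nor did every library correlate best with its own number. With the replicate block CD74 was -2.18 in myrAKT and 0.14 for MK2206, and the block changed no call of the 9 genes. Among results for the 9 genes, 424 of those without a library kept their direction and side of the threshold, 30 uncalled or untested values moved and 2, both of HLA-DMB in myrAKT, which is given with no test, crossed the threshold. Low counts limit what MK2206 could show: in knockout libraries CD74 had 6 to 28 and HLA-DPA1 6 to 15, and HLA-DRA, HLA-DRB1, HLA-DMB and HLA-DPB1 at most 14. The pooled MK2206 intervals also hold the difference between KO1 and KO2.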

Other observations

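The other class II chains were too low for the filter, and a fit without it gave their values in myrAKT against WT. HLA-DRB5 was 2.36 ± 0.87 higher on the log2 scale (edgeR adjusted p = 0.0348) and HLA-DOB was at 0.25 ± 0.49 (edgeR adjusted p = 0.850), neither passing the threshold. Among the genes most like CD74, IFITM1 averaged 26.3 CPM in WT, 11.7 CPM in KO1, 7.40 CPM in KO2 and 13.2 CPM in myrAKT. The integrin gene ITGA6 averaged 490 CPM in WT, 323 CPM in KO1, 269 CPM in KO2 and 398 CPM in myrAKT. These genes were picked for their correlation with CD74, so a like pattern is built into the choice.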
